A study of Homo sapiens with 8 samples.

Results

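The pre-mRNA splicing genes examined here are the rows of the deposited table whose symbols begin with HNRNP or SNRP, or name an SRSF, SF3A, SF3B or U2AF gene. They number 55 of 14526 rows: 22 HNRNP, 12 SRSF, 9 SF3A or SF3B, 11 SNRP and 1 U2AF row. HNRNPU-AS1, an antisense transcript, and HNRNPA1P10, a pseudogene of HNRNPA1, come in through their symbols and are kept apart where it matters. Of the genes whose symbols fit the same pattern, HNRNPA1L3, HNRNPCL1, HNRNPCL2, HNRNPCL3, HNRNPCL4, HNRNPH2, SNRPN and U2AF1 have no row and were not analysed here. RNA-seq was done on 4 control libraries and 4 libraries from cells given sodium benzoate (SB), the sodium salt of benzoic acid and a food preservative, at 10 mM for 24 h. Both groups were grown in DMEM with fetal bovine serum, and both carry the label HepG2, an established line of human liver carcinoma cells. The comparison asks which splicing genes differ in RNA level between SB-treated and control cells.

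Splicing removes introns from pre-mRNA and is carried out by the spliceosome, which is built from small nuclear ribonucleoproteins (snRNPs). Each snRNP holds a short RNA together with proteins particular to it. In most of them the RNA carries a ring of Sm proteins, encoded by SNRPB, SNRPD1, SNRPD2, SNRPD3, SNRPE, SNRPF and SNRPG. The U1 snRNP recognises the 5′ splice site, U2AF binds the pyrimidine tract and the 3′ splice site, and the U2 snRNP with its SF3a and SF3b complexes settles on the branch point. SR proteins (SRSF genes) bind exons and generally favour the use of nearby sites, whereas many hnRNPs coat the pre-mRNA and can block sites. Several SR and hnRNP genes carry conserved exons whose inclusion sends the transcript to nonsense-mediated decay, and per-gene values do not separate such isoforms.

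Values are RPKM, which scales reads by gene length and library size. Whole reads were recovered from these values for all 14526 genes, and the reads on the table ranged from 36990091 to 44492817 in the controls and from 37161801 to 44878446 in the SB-treated libraries. The mean control reads of the splicing rows ran from 67.0 for HNRNPA1P10 to 73673 for HNRNPA2B1, so counting error weighs most on HNRNPA1P10 and other low rows. Control replicate 1 stood apart from the other controls: it was the highest control for 37 of the 55 rows and the lowest for 12. Over all 14526 genes it was the highest control for 5949 and the lowest for 5995, and values without it are given where they matter. The label HepG2 was checked against 20 hepatocyte genes: 19 of them, among them ALB, APOA1, TTR, AFP and HNF4A, have no row, and TF had 0.192 ± 0.0188 RPKM in the controls and 0.379 ± 0.0748 RPKM in the SB-treated libraries (SD, n = 4). Genes that most cells use, such as SMN1, DDX39B and U2AF1, also lack a row, so a missing row does not show that a gene was not expressed. The low level of TF, a gene that hepatocytes express strongly, goes against the label, and the cells are called control and SB-treated cells below. Fewer cells of a type and less RNA per cell cannot be told apart in bulk RNA, and RPKM gives a gene's share of the RNA and not an amount per cell.

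The sequence before the start was examined for what the splicing genes share. RefSeq promoters (assembly GRCh38.p14) were matched by symbol for 49 of the 55 rows, and the 250 bases before each start were searched on both strands for 9 short motifs. The letters CCGGAAG, the core bound by ETS family factors, were in 19 of the 49 promoters (38.8%), in 14 of 31 promoters of genes that were lower after SB (45.2%), in 7 of 10 SNRP promoters and in 0 of 4 promoters of genes that were higher. The letters were also in promoters of genes that were not called: HNRNPF, SF3A1, SF3A2, SRSF5 and U2AF2. The share was 15.1% over the 10651 genes of the table with a promoter and 8.82% over all 27305 promoters. No share was computed for genes of similar level, and a tie between the letters and the falls was not tested. CCAAT (NFY) was in 38.8% of the splicing promoters and 34.8% of those of the table, GGGCGG (SP1) in 61.2% and 67.0%, CACGTG (E-box) in 12.2% and 8.85%, and TCGCGA in 12.2% and 4.68%. TATAAA was in 12.2% and 5.13%, GCGCATGC (NRF1) in 4.08% and 4.64%, AAGATGGC (YY1) in 2.04% and 1.81%, and TGACGTCA (CRE) in 0.0% and 2.85%. The motifs were chosen with the expression results known, and a match is a description of the letters only. The 100 bases before the start are shown for 6 genes that fell and hold the ETS letters, for SNRPA, which had the lowest log2 difference of the 55 rows and does not hold them there, and for HNRNPA0, which rose. Each is printed 5′ to 3′ in the sense of its gene, ends at the base before the start, and has CCGGAAG or its reverse complement in capitals.
SNRPB, chr20:2470790-2470889, minus strand: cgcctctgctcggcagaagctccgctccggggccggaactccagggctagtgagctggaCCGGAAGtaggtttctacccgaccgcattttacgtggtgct
SNRPD2, chr19:45692317-45692416, minus strand: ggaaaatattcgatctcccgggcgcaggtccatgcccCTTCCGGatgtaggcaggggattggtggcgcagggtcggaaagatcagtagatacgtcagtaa
SNRPB2, chr20:16729926-16730025, plus strand: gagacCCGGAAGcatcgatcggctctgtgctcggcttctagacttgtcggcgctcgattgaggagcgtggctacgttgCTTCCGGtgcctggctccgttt
SF3B6, chr2:24076327-24076426, minus strand: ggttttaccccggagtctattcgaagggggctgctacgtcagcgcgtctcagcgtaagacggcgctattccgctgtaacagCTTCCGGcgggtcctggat
SF3A3, chr1:37990023-37990122, minus strand: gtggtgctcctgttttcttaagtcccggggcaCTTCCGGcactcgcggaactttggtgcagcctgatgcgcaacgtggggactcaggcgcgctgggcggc
SF3B2, chr11:66052264-66052363, plus strand: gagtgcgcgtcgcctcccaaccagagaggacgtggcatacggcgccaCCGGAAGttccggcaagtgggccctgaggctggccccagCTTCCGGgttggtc
SNRPA, chr19:40751103-40751202, plus strand: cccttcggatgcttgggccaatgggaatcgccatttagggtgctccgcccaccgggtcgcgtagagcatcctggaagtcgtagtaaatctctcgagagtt
HNRNPA0, chr5:137754364-137754463, minus strand: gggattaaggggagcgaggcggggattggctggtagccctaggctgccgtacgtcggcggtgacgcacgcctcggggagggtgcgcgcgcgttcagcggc
In SNRPB2 and SF3B2 the letters occur at 2 places of the window, and in SF3B6, SNRPB2 and SF3B2 a copy lies within the last 25 bases. The windows of SNRPA and HNRNPA0 hold CCAAT or its reverse complement, as does that of SNRPD2.

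Most of the splicing genes were lower in the SB-treated libraries. By limma on log2(RPKM + 1), with p-values adjusted over all 14526 genes and called below 0.05, 33 of the 55 rows fell, 6 rose and 16 were not called. The share that fell was 60.0%, where 32.6% of all genes fell, and the share that rose was 10.9%, where 33.0% of all genes rose. Falls made up a greater share of highly expressed genes: of the 3857 genes with a mean of at least 20 RPKM, 59.5% fell and 13.7% rose. Of the 49 splicing rows above that level 32 fell (65.3%) and 4 rose (8.16%), so the share of splicing rows that fell was near that of other genes of similar level. Leaving out the antisense and pseudogene rows, 33 of 53 fell and 5 rose.

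The summed RPKM of the 55 rows was 7738, 7220, 7443 and 7205 in the 4 controls and 6199, 6108, 6145 and 6171 in the 4 SB-treated libraries. The groups did not overlap, and the sum fell by 16.8%, from 7401 ± 249 to 6156 ± 39.0 (SD, n = 4). The same sum fell by 12.2% over all genes and by 15.0% over genes of at least 20 RPKM, also without overlap, so the fall of the splicing rows was close to that of abundant genes at large. Single genes moved by modest amounts: the median log2 difference was -0.22, beside 0.0045 over all genes and -0.20 over genes of at least 20 RPKM, and the range ran from -0.76 (SNRPA) to 0.34 (SRSF2). A fall of at least 0.5 on the log2 scale was called for 6 rows (SNRPA, SF3B6, HNRNPA3, SNRPE, HNRNPC and SNRPC) and a rise of that size for 0, against 5.45% and 5.12% of all genes. Among genes of at least 20 RPKM the shares were 11.5% and 1.37%, and all 6 of these rows are among the 49 above that level, so the count is near that background. The control and SB-treated values did not overlap for 33 rows that were lower and 7 that were higher, against 30.5% and 31.0% of all genes and 57.5% and 13.7% of genes of at least 20 RPKM. For each of those rows the exact two-sided permutation p was 0.0286, the smallest that 4 against 4 allows.

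The split depends on how libraries were scaled. The authors' TMM factors, as implied by the values, were 0.956 to 0.968 in the controls and 1.03 to 1.04 in the SB-treated libraries. All summed levels given here rest on these factors, which lower the SB-treated values relative to the controls. Sums with plain library sizes were not computed. With plain library sizes the median log2 ratio over all genes moved from 0.004 to 0.109, and 14 splicing rows rose and 25 fell. The all-gene counts then stood at 6253 higher and 3357 lower. HNRNPA1, HNRNPA1L2, HNRNPLL, SF3B4, SNRPB2, SRSF4, SRSF6 and SRSF10 lost their calls, and HNRNPUL2, HNRNPU-AS1, SF3A1, SF3B3, SRSF5, SRSF11, SRSF12 and U2AF2 were called higher. Other modest falls kept their calls at smaller differences, such as SF3B1 and SRSF3 (both -0.13) and SNRPD2 (-0.17). Without control replicate 1 there were 10 rises and 34 falls, and the median log2 difference of the rows was -0.17.

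**Figure D1:**
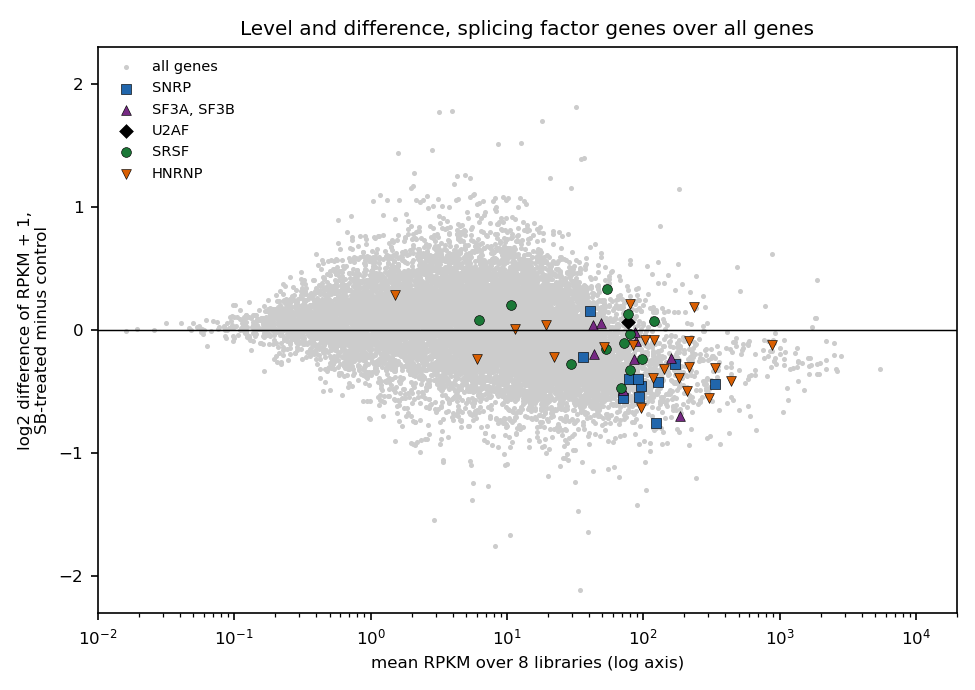
The log2 difference of RPKM + 1, SB-treated minus control, is plotted against the mean RPKM over the 8 libraries on a log axis for all 14526 genes (grey) and for the 55 splicing rows (coloured by family). Most splicing rows lie among the highly expressed genes, where the grey cloud also lies below 0.

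**Figure D2:**
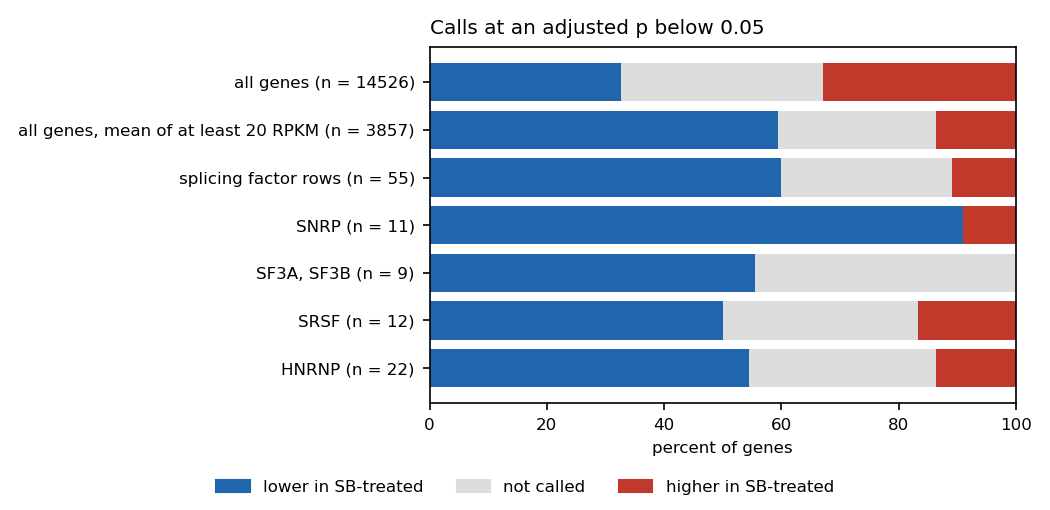
Bars give the percent of genes that fell (blue), were not called (grey) or rose (red) at an adjusted p below 0.05 in limma, for all genes, for genes with a mean of at least 20 RPKM, and for the splicing rows and their families, with n beside each name. The splicing rows (60.0% lower) sit beside the genes of at least 20 RPKM (59.5% lower), and the SNRP family has the highest share lower, 10 of 11.

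The snRNP protein genes with SNRP symbols fell with 1 exception. Of 24 snRNP protein genes outside the pattern 13 fell, 4 rose and 7 were not called. Of the 11 SNRP rows 10 fell (90.9%) and 1 rose (9.09%), where 59.5% of genes of at least 20 RPKM fell and 13.7% rose. The median log2 difference of the SNRP rows was -0.42, beside -0.20 for those genes. The summed level of the SNRP rows was 1399, 1465, 1497 and 1452 RPKM in the controls. In the SB-treated libraries it was 1072, 1079, 1066 and 1080 RPKM. The sum fell by 26.1%, from 1453 ± 41.0 to 1074 ± 6.53 RPKM, and the groups were far apart. The sum over genes of at least 20 RPKM fell by 15.0%. Without control replicate 1 the family still had 10 falls and 1 rise, and with plain library sizes 9 falls and 1 rise.

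Of the proteins particular to the U1 snRNP, SNRPA (U1-A), which binds a stem-loop of U1 RNA, had 146, 154, 167 and 152 RPKM in the controls and 87.0, 93.7, 91.2 and 92.7 RPKM after SB. Every SB-treated library lay well below every control. The log2 difference was -0.76 (SE 0.05, adjusted p = 1.29e-06), a fall by 41.1%, and SNRPA stood at place 145 of all genes ordered from the greatest fall. SNRPC (U1-C), which helps U1 engage the 5′ splice site, had 113, 107, 112 and 108 RPKM in the controls and 76.5, 75.7, 72.6 and 75.9 RPKM after SB. Its log2 difference was -0.54 (SE 0.03, adjusted p = 1.55e-06). The remaining U1 protein, U1-70K, is encoded by SNRNP70, whose symbol lies outside the pattern. SNRNP70 went the other way, from 76.9 ± 6.29 to 85.9 ± 2.06 RPKM, with a log2 difference of 0.16 (SE 0.06, adjusted p = 0.0300). The U1 proteins thus did not move together at the RNA level.

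The U2 snRNP proteins SNRPA1 (U2-A′) and SNRPB2 (U2-B″), which bind U2 RNA as a pair, both fell but by unequal amounts. SNRPA1 had 116, 110, 112 and 105 RPKM in the controls and 81.1, 81.5, 77.7 and 82.3 RPKM after SB, a log2 difference of -0.45 (SE 0.04, adjusted p = 8.28e-06). SNRPB2 had 47.8, 35.4, 36.6 and 36.1 RPKM in the controls and 34.7, 32.6, 32.8 and 32.3 RPKM after SB. Control replicate 1 alone carried much of that difference: it was -0.22 (SE 0.09, adjusted p = 0.0466) with it and -0.12 (adjusted p = 0.00631) without it. The call was lost when control replicate 3 or any SB-treated replicate was left out (adjusted p from 0.0553 to 0.0991).

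Of the 7 Sm ring genes 6 fell (85.7%) and SNRPD3 rose, and their sum fell by 23.6%, from 1039 ± 42.3 to 794 ± 2.32 RPKM. Of genes of at least 20 RPKM 59.5% fell, and their sum fell by 15.0%. SNRPB, which encodes Sm-B/B′ and had the highest level of the SNRP genes, showed 295 RPKM in control replicate 1 but 414, 421 and 415 RPKM in the other controls, and 276, 292, 283 and 279 RPKM after SB. The log2 difference was -0.44 (SE 0.10, adjusted p = 0.00438), and -0.56 (adjusted p = 2.48e-07) without control replicate 1. SNRPE had 93.9, 80.9, 81.8 and 83.1 RPKM in the controls and 60.5, 55.4, 56.5 and 57.6 RPKM after SB, and its log2 difference was -0.55 (SE 0.05, adjusted p = 1.54e-05).

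SNRPD2, the Sm gene with the next highest level, had 167, 199, 193 and 193 RPKM in the controls and 152, 157, 158 and 153 RPKM after SB, a log2 difference of -0.27 (SE 0.05, adjusted p = 0.00162). The falls of SNRPG (-0.42), SNRPD1 (-0.40) and SNRPF (-0.39) lay between these, each without overlap between the groups. SNRPD3 was the exception in the ring. It had 42.1, 36.6, 37.7 and 37.3 RPKM in the controls and 44.5, 42.1, 42.9 and 42.1 RPKM after SB, and control replicate 1 all but touched the SB-treated values. Its log2 difference was 0.16 (SE 0.05, adjusted p = 0.0151), and 0.20 without control replicate 1.

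**Figure D3:**
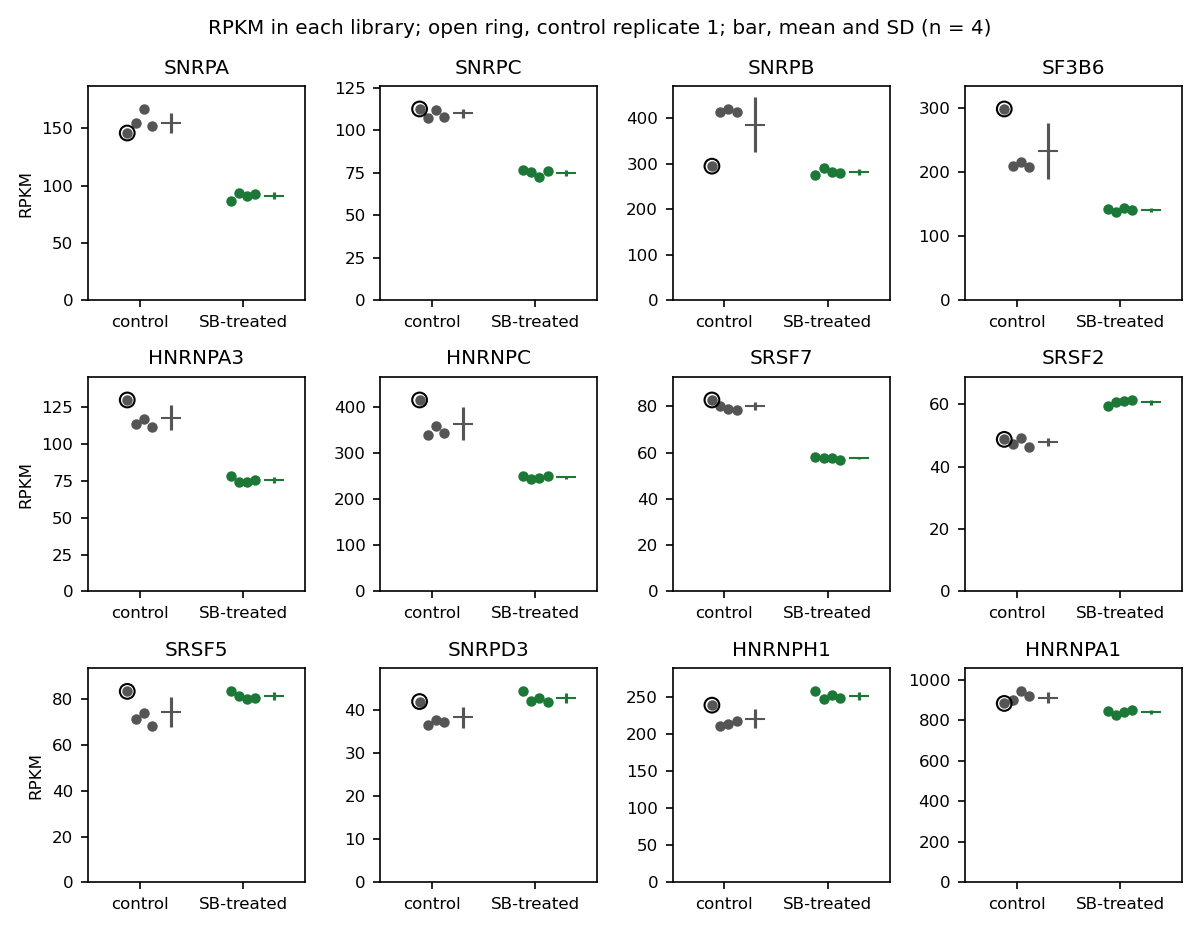
RPKM of 12 splicing genes in each of the 8 libraries, on axes that start at 0, with control replicate 1 ringed and the mean and SD of each group (n = 4) drawn beside the points. SB-treated points lie below all controls for SNRPA, SNRPC, SNRPB, SF3B6, HNRNPA3, HNRNPC, SRSF7 and HNRNPA1, above them for SRSF2, SNRPD3 and HNRNPH1, and overlap the ringed control for SRSF5.

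The SF3a and SF3b genes split into members that fell and members that did not move beyond their spread. Of 9 rows 5 fell, 0 rose and 4 were not called, and the summed level fell by 18.3%, from 899 ± 28.4 to 735 ± 5.78 RPKM. The share lower was 55.6%, near the 59.5% of genes of at least 20 RPKM, whose own sum fell by 15.0%. SF3B6 (p14), a subunit of SF3b, had 298, 210, 215 and 208 RPKM in the controls and 143, 137, 144 and 141 RPKM after SB. Its log2 difference was -0.70 (SE 0.10, adjusted p = 0.000255). Control replicate 1 was far above the other controls, and without it the difference was -0.58 (adjusted p = 2.09e-07).

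SF3A3, a subunit of SF3a, had 89.4, 80.1, 84.6 and 79.7 RPKM in the controls and 60.6, 58.1, 59.2 and 59.6 RPKM after SB, a log2 difference of -0.48 (SE 0.04, adjusted p = 9.90e-06). SF3B1, the scaffold of SF3b and a gene often mutated in myeloid neoplasms, had 101, 91.3, 88.5 and 92.9 RPKM in the controls and 81.2, 77.2, 80.3 and 77.9 RPKM after SB. Its log2 difference was smaller, -0.23 (SE 0.04, adjusted p = 0.00117). SF3B2 went from 173 ± 5.12 to 148 ± 2.0 RPKM (log2 difference -0.22, adjusted p = 0.000309). SF3B4 went from 46.7 ± 1.99 to 40.6 ± 1.24 RPKM (-0.20, adjusted p = 0.00216), and its call was lost with plain library sizes (adjusted p = 0.0823).

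The other SF3 rows were not called. SF3A1 and SF3A2, the partners of SF3A3 in SF3a, had log2 differences of 0.05 (SE 0.05, adjusted p = 0.468) and -0.09 (SE 0.06, adjusted p = 0.236). SF3B3 and SF3B5 had 0.06 (SE 0.05, adjusted p = 0.339) and -0.01 (SE 0.08, adjusted p = 0.887). In SF3A1, SF3B3 and SF3B5 control replicate 1 was the lowest control by a wide margin, with 37.5, 42.6 and 72.5 RPKM. Without it SF3B5 was called lower (-0.10, adjusted p = 0.0250), while SF3A1 and SF3B3 stayed near 0. Of the SF3a genes of the pattern 1 of 3 was called lower, and of the SF3b genes 4 of 6. PHF5A, an SF3b protein whose symbol lies outside the pattern, went from 45.2 ± 4.08 to 33.5 ± 1.39 RPKM (-0.42, adjusted p = 0.000231).

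U2AF2, the large subunit of U2AF that reads the pyrimidine tract, had 71.2, 76.3, 76.5 and 76.7 RPKM in the controls and 78.7, 79.7, 78.0 and 78.6 RPKM after SB. All SB-treated values lay above all controls, but the log2 difference was only 0.07 (SE 0.04) and did not pass the test (adjusted p = 0.120). It passed with plain library sizes (0.17, adjusted p = 0.0026).

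The SR protein genes moved in both directions. Of 12 rows 6 fell, 2 rose and 4 were not called. Among genes of at least 20 RPKM 59.5% fell and 13.7% rose, so moves in both directions were not particular to the SR rows. The sum over those genes fell by 15.0%. The summed level of the SR rows fell by 6.18%, from 773 ± 42.3 to 725 ± 4.08 RPKM. The median log2 difference was -0.07, but -0.02 without control replicate 1 and 0.04 with plain library sizes. Control replicate 1 widened the fall of the sum: it had 834 RPKM where the other controls had 753, 766 and 739 RPKM. The SB-treated libraries had 721 to 731 RPKM, below every control. SRSF7 (9G8), which also takes part in mRNA export, had 82.7, 80.3, 78.8 and 78.6 RPKM in the controls and 58.3, 57.8, 57.6 and 56.9 RPKM after SB. The libraries of each group lay close together, and the log2 difference was -0.47 (SE 0.03, adjusted p = 2.31e-06).

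SRSF9 had 84.9, 92.1, 92.6 and 87.7 RPKM in the controls and 70.7, 71.3, 73.2 and 70.2 RPKM after SB, a log2 difference of -0.32 (SE 0.04, adjusted p = 6.35e-05). SRSF3, among the smallest SR proteins and an export adaptor like SRSF7, had 110, 103, 103 and 104 RPKM in the controls and 89.2, 88.6, 88.2 and 90.6 RPKM after SB. Its log2 difference was -0.24 (SE 0.03, adjusted p = 0.000225). SRSF10, which acts as a repressor of splicing when dephosphorylated, had 38.4 RPKM in control replicate 1 and 30.6, 30.3 and 30.4 RPKM in the other controls, and 27.1, 26.2, 26.3 and 26.6 RPKM after SB. With control replicate 1 its log2 difference was -0.27 (adjusted p = 0.00773), and without it -0.19 (adjusted p = 7.98e-05). SRSF6 (-0.15) and SRSF4 (-0.11) fell by less. The SRSF4 call was also lost when control replicate 3 or any SB-treated replicate was left out (adjusted p from 0.0521 to 0.0662).

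Against these, SRSF2 (SC35), a nuclear speckle protein that is often mutated in myeloid disease, rose. It had 48.8, 47.3, 49.3 and 46.3 RPKM in the controls and 59.6, 60.8, 61.0 and 61.5 RPKM after SB, a log2 difference of 0.34 (SE 0.03, adjusted p = 2.07e-05). That was the highest log2 difference of the 55 rows. SRSF8, a close relative of SRSF2 that arose as a copy of it, rose as well, from 9.94 ± 0.429 to 11.6 ± 0.161 RPKM (0.21, adjusted p = 0.000803). Short reads of such similar genes may be hard to assign, and how the counting treated them was not tested.

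SRSF1 (SF2/ASF) had 93.6, 75.9, 77.9 and 74.4 RPKM in the controls and 80.6, 77.2, 77.5 and 79.0 RPKM after SB, and the log2 difference was -0.03 (SE 0.07, adjusted p = 0.734). SRSF11, the SR gene with the highest level, had 135, 110, 113 and 107 RPKM in the controls and 125, 119, 121 and 123 RPKM after SB (0.08, SE 0.07, adjusted p = 0.337). SRSF5 had 83.4, 71.5, 73.9 and 68.2 RPKM in the controls and 83.6, 81.3, 80.1 and 80.5 RPKM after SB (0.13, SE 0.06, adjusted p = 0.0625). In all of these control replicate 1 was the highest control. Without it SRSF5 (0.19, adjusted p = 0.000534), SRSF11 (0.15, adjusted p = 0.00102) and SRSF12 (0.15, adjusted p = 0.00303) were called higher and SRSF1 was not (0.05, adjusted p = 0.159). The SRSF count was then 5 higher and 6 lower.

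The hnRNP genes reached the highest levels of all the rows. HNRNPA1, an RNA-binding protein that represses many exons, stood at place 50 of all genes by mean RPKM and HNRNPA2B1 at place 93. Of the 22 HNRNP rows 12 fell, 3 rose and 7 were not called, and the summed level fell by 15.7%, from 4201 ± 209 to 3543 ± 40.6 RPKM. These shares, 54.5% lower and 13.6% higher, lie near those of genes of at least 20 RPKM (59.5% and 13.7%), as does the fall of the sum (15.0% there). Control replicate 1 was the highest control for 16 of them.

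In the A/B group 4 of 5 genes fell. HNRNPA3 had 130, 113, 117 and 112 RPKM in the controls and 78.1, 74.0, 74.0 and 75.7 RPKM after SB, a log2 difference of -0.64 (SE 0.05, adjusted p = 5.09e-06). HNRNPA2B1 had 585, 457, 495 and 465 RPKM in the controls and 390, 360, 372 and 376 RPKM after SB, a log2 difference of -0.41 (SE 0.07, adjusted p = 0.000771). That difference was -0.33 without control replicate 1. HNRNPA1 had 882, 901, 943 and 917 RPKM in the controls and 844, 825, 839 and 849 RPKM after SB. This was a small difference of -0.12 (SE 0.03, adjusted p = 0.0116), which was lost with plain library sizes (-0.01, adjusted p = 0.757). HNRNPAB fell by 0.30 on the log2 scale. HNRNPA0 was the exception: it had 75.4, 73.4, 76.6 and 72.6 RPKM in the controls and 85.1, 88.7, 87.3 and 85.0 RPKM after SB, a log2 difference of 0.21 (SE 0.03, adjusted p = 0.000400).

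HNRNPC, which binds uridine tracts and packages nascent transcripts, had 415, 339, 357 and 343 RPKM in the controls and 251, 243, 246 and 249 RPKM after SB. Its log2 difference was -0.55 (SE 0.06, adjusted p = 3.87e-05), and -0.48 without control replicate 1. HNRNPD (AUF1), which also binds AU-rich elements in mRNA, had 280, 228, 247 and 224 RPKM in the controls and 174, 168, 174 and 176 RPKM after SB (-0.50, SE 0.07, adjusted p = 0.000119). HNRNPL, a binder of CA repeats, had 187, 216, 208 and 221 RPKM in the controls and 157, 162, 159 and 155 RPKM after SB (-0.39, SE 0.05, adjusted p = 0.000129). For HNRNPC and HNRNPD control replicate 1 was the highest control and for HNRNPL the lowest, and all groups were without overlap. HNRNPUL1 (-0.39), HNRNPM (-0.31), HNRNPK (-0.30) and HNRNPLL (-0.22) fell too.

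In the F/H group, whose proteins bind G tracts, 1 of 3 genes rose and 0 fell. HNRNPH1 had 239, 210, 214 and 217 RPKM in the controls and 258, 246, 252 and 248 RPKM after SB, a log2 difference of 0.19 (SE 0.04, adjusted p = 0.00399). HNRNPF and HNRNPH3 were not called (-0.08, adjusted p = 0.142, and -0.08, adjusted p = 0.304). HNRNPU, HNRNPUL2, HNRNPR and HNRNPDL were not called either, with log2 differences between -0.13 and 0.01. HNRNPU-AS1, which lies antisense to HNRNPU, had 19.2 ± 1.56 and 19.8 ± 0.672 RPKM (0.04, adjusted p = 0.508). Without control replicate 1 it was called higher (0.09, adjusted p = 0.0361). The library kit kept strand, but whether the counting used it is not given in the sources used here.

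Rows that resemble HNRNPA1 are uncertain, since short reads can fit more than one of them. HNRNPA1L2, a retrotransposed copy, went from 6.62 ± 1.07 to 5.43 ± 0.247 RPKM with overlapping groups (-0.24, adjusted p = 0.0356). That difference was -0.15 without control replicate 1, and its call was lost without control replicate 3 or SB-treated replicate 1, 3 or 4 (adjusted p from 0.0722 to 0.0887). HNRNPA1P10 had 1.16, 1.31, 1.47 and 1.08 RPKM in the controls and 1.5, 1.97, 1.78 and 1.73 RPKM after SB (0.28, SE 0.07, adjusted p = 0.00380), on a mean of 67.0 and 98.8 reads.

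**Figure D4:**
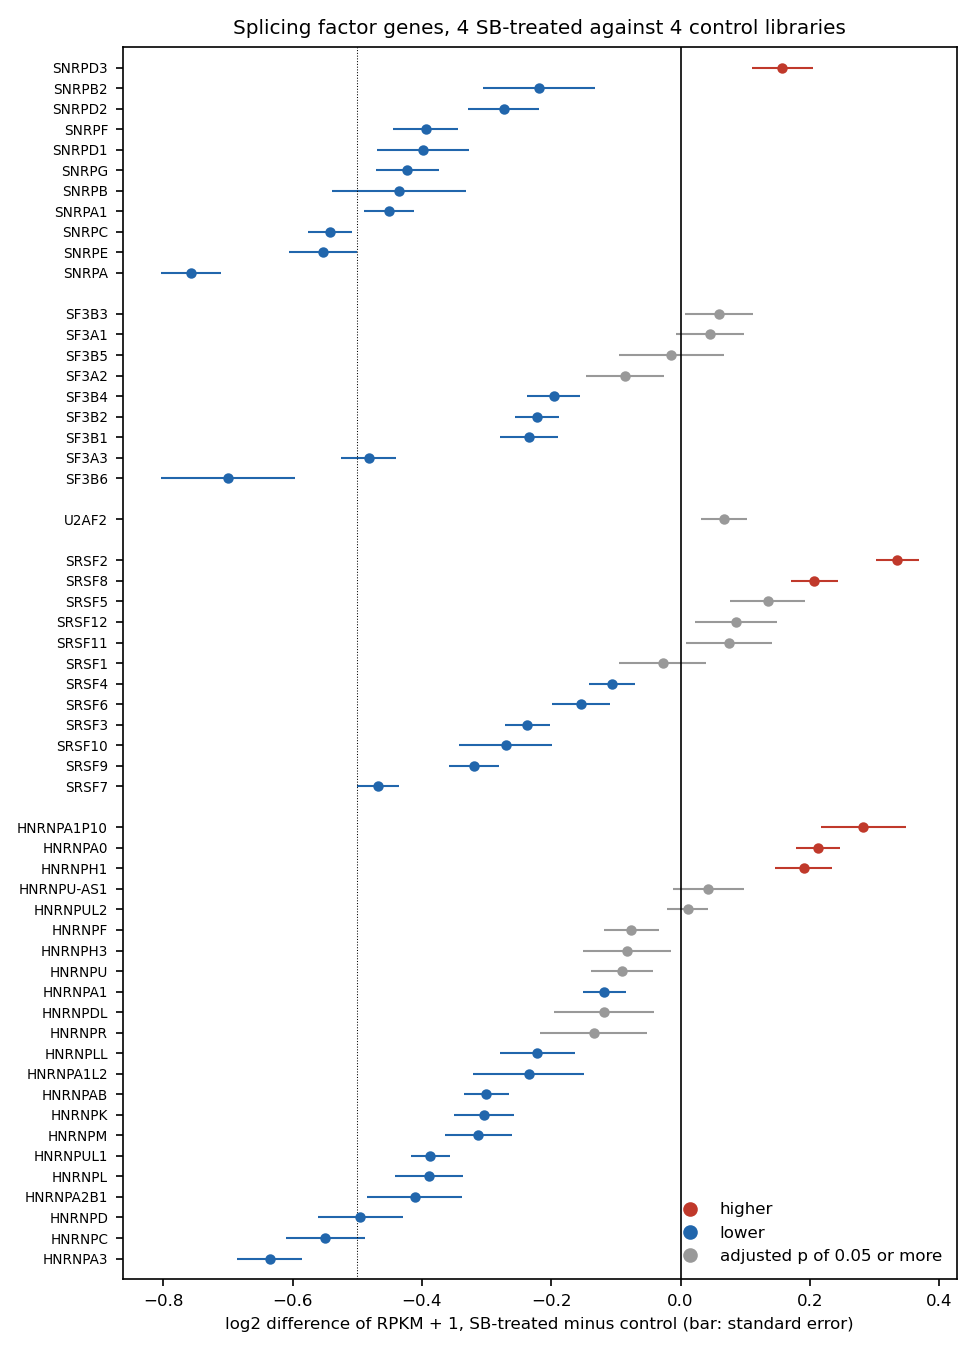
Log2 difference of RPKM + 1, SB-treated minus control, with its standard error from limma for each of the 55 rows, grouped as SNRP, SF3, U2AF, SRSF and HNRNP from top to bottom. Blue rows fell, red rows rose and grey rows were not called, and the dotted line marks -0.5. The lowest values are SNRPA (-0.76), SF3B6 (-0.70) and HNRNPA3 (-0.64), and the highest is SRSF2 (0.34).

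The wider splicing machinery was described with 12 lists of other genes. Of 184 listed genes 178 have a row, of which 93 fell and 29 rose, with a median log2 difference of -0.15. The shares were 52.2% lower and 16.3% higher, between those of all genes (32.6% and 33.0%) and those of genes of at least 20 RPKM (59.5% and 13.7%), and the counts below are descriptions to be read beside these. With plain library sizes 68 fell and 42 rose. The genes named below are those with the greatest called differences of each list.

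Of the factors that build snRNPs 15 have a row, of which 11 fell and 1 rose. GEMIN5, which picks out snRNAs for the SMN complex, had 26.7 ± 0.620 RPKM in the controls and 14.8 ± 0.190 RPKM after SB, a log2 difference of -0.80 (SE 0.03, adjusted p = 1.52e-07). WDR77, a part of the methylosome that modifies Sm proteins, fell by 0.61 on the log2 scale, and GEMIN2 fell by 0.52. Of 8 LSM genes, which encode the Sm-like ring of U6 and its cytoplasmic relative, 5 fell and 0 rose. LSM4 was at -0.60, LSM6 at -0.43 and LSM5 at -0.38. Without control replicate 1 these differences were -0.59, -0.31 and -0.31.

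Among the 24 other snRNP proteins 13 fell and 4 rose. DDX46, a helicase that acts with the U2 snRNP, fell by 0.50 on the log2 scale and TXNL4A, a U5 protein, by 0.48, while CD2BP2, another U5-associated protein, rose (0.52, SE 0.04, adjusted p = 2.89e-06). Of 12 branch point and 3′ splice site genes 7 fell and 0 rose. DNAJC8 fell by 0.60 on the log2 scale, U2AF1L4, a relative of the small U2AF subunit, by 0.57, and RBM10, which represses exons, by 0.52. Without control replicate 1 these differences were -0.51, -0.67 and -0.59. The PRP19 complex and the step factors, which activate the spliceosome and carry it through catalysis, had 16 falls and 1 rise among 20 genes, with PRPF19 at -0.57, CWC27 at -0.50 and BCAS2 at -0.48. Of 7 helicases 2 fell (DHX15 at -0.22, DHX16 at -0.20) and 1 rose (DDX39A at 0.36), and of 10 minor spliceosome genes 5 fell and 1 rose, with RNPC3 at -0.39, SNRNP48 at -0.28 and ZMAT5 at -0.27.

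The kinases that phosphorylate SR proteins showed no common direction. Of 10 genes, the phosphatase PPP1CC included, 3 fell, 2 rose and 5 were not called. PPP1CC was among the falls. The shares that fell and rose were both below those of all genes (32.6% and 33.0%), so the list did not stand out from the background. SRPK1, a mostly cytoplasmic kinase of SR proteins, went from 95.9 ± 4.27 to 75.5 ± 1.05 RPKM (-0.34, adjusted p = 4.46e-05), while the nuclear kinase CLK1 rose from 17.5 ± 2.01 to 23.8 ± 0.804 RPKM (0.43, adjusted p = 0.000421). SRPK3 rose at a low level, from 1.91 ± 0.244 to 3.158 ± 0.166 RPKM (0.52, adjusted p = 5.94e-05). Of 21 SR-related genes 11 fell and 6 rose. The exon enhancer-binding TRA2A and TRA2B, which are paralogs, fell by 0.62 and by 0.38 on the log2 scale, and RBM25 fell by 0.42.

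Downstream of splicing, 5 of 7 exon junction complex genes fell and 0 rose. MAGOHB, a copy of MAGOH, fell by 0.73 on the log2 scale, SAP18 by 0.39 and EIF4A3, the anchor of the complex on mRNA, by 0.38. The 12 nonsense-mediated decay genes had 3 falls and 5 rises: UPF1, the central helicase of the pathway, rose from 39.0 ± 3.23 to 47.9 ± 1.48 RPKM (0.29, adjusted p = 0.00161), SMG6, its endonuclease, rose by 0.30, and UPF3B fell by 0.37 (by 0.25 without control replicate 1). Of 32 other splicing regulators 12 fell and 8 rose. YBX1, an abundant RNA-binding protein, had 860 ± 114 RPKM in the controls and 488 ± 4.43 RPKM after SB (-0.81, SE 0.08, adjusted p = 1.5e-05). KHSRP fell by 0.42, and NOVA2, better known from neurons, rose by 0.36 from a level of 1.17 RPKM.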

How the data were processed

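The authors prepared stranded total RNA libraries (TruSeq) from 4 biological replicates per group, sequenced 50 bp single reads, mapped them to hg38 with TopHat2 2.1.0 and counted reads per gene with featureCounts 1.5.0. Genes above 1 CPM in at least 2 samples were kept, and libraries were scaled by TMM in edgeR 3.16.5. The deposited table holds an RPKM value per library for 14526 genes. It also holds the authors' log2 fold change, mean log2 CPM, p-value and FDR, which were not used, and 0 columns of per-sample values were left unused. Whole reads were recovered from the RPKM values by their common steps, and 169 genes with a RefSeq span equal to their counted length set the scale.

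Differences between groups were fitted per gene on the log2(RPKM + 1) scale by limma (version 3.58.1, R 4.3.3; lmFit, then eBayes), p-values were adjusted over the whole table by the Benjamini-Hochberg method, and single genes also with an exact permutation test (scipy 1.17.1, Python 3.11.15). The fit was also run on simulated reads in which few genes changed. Many genes were called in these data, so that run does not check the calls given here. The pseudocount of 1 understates changes of low genes. Alternatives were a pseudocount of 0.1, a minimum mean of 1 RPKM, library sizes without TMM, median-of-ratios scaling, voom on recovered reads, an intensity trend, the replicate number as a block, and each library left out in turn. Named genes are the 2 with the highest level in each family, up to 5 called rises and 5 called falls, U2AF2, and the greatest called differences of each list. SNRNP70, PHF5A, PPP1CC and the other members were named after their values were seen. The members, lists and motifs were chosen with earlier results of these data known. Promoters are RefSeq's, 250 bases before the start.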

Additional observations from a re-analysis of the deposited data

Results flagged for a closer look

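Within a group of 4 libraries, a value was singled out where its gap to the next library, divided by the range of the group, was above Dixon's 95% critical value. Of 110 groups (55 rows in control and in SB-treated libraries) 11 were past it, where chance gives about 5.5. In 9 of the 11 the library was control replicate 1, and in 1 it was an SB-treated library.

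Control replicate 1 was the highest control for SRSF10 (gap ratio 0.957, 38.4 RPKM), SF3B6 (0.905, 298.1 RPKM), SNRPB2 (0.887, 47.79 RPKM) and HNRNPK (0.847, 406.4 RPKM). It was the lowest control for SNRPB (0.956, 295.1 RPKM), U2AF2 (0.936, 71.2 RPKM), SF3B3 (0.894, 42.57 RPKM), SF3B5 (0.892, 72.53 RPKM) and SF3A1 (0.866, 37.52 RPKM). Control replicate 3 was the highest control for SF3B2 (0.93, 181 RPKM), and SB-treated replicate 2 was the lowest of its group for HNRNPAB (0.903, 191.6 RPKM). The log2 differences of SRSF10, SF3B6, SNRPB2, HNRNPK and SNRPB stayed negative and called without control replicate 1, and SF3B5 was called lower only without it among the fits that left out 1 library.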

How the results depend on the processing

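With plain library sizes 14 splicing rows rose, against 6, and the falls of at least 0.5 on the log2 scale numbered 3, against 6. SNRPE (-0.45), HNRNPC (-0.44) and SNRPC (-0.44) then no longer reached a fall of 0.5. Without control replicate 1, 10 rows rose. Over the 8 fits that left out 1 library, 6 to 10 rows rose, 30 to 34 fell and 6 to 8 fell by at least 0.5. Under the other alternatives 6 to 7 rows rose and 32 to 33 fell. Differences near 0 changed sign in rows that were not called: with plain library sizes HNRNPF (0.0283), HNRNPH3 (0.0214), HNRNPU (0.0143), SF3A2 (0.018), SF3B5 (0.0898) and SRSF1 (0.0762), without control replicate 1 SF3A1 (-0.0103) and SRSF1 (0.0465), and without SB-treated replicate 1 HNRNPUL2 (-0.0005). SF3B5 also did so without SB-treated replicate 4 (0.0113) and without control replicates 2 (0.0193), 3 (0.0071) or 4 (0.0205). Over all fits that left out 1 library the log2 differences ranged from -0.1038 to 0.0205 for SF3B5, from -0.0103 to 0.068 for SF3A1, from -0.063 to 0.0465 for SRSF1 and from -0.0005 to 0.0221 for HNRNPUL2. The cause was not tested.

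Both groups number their replicates 1 to 4, but nothing ties same-numbered cultures together, and the correlations of their deviations were 0.38, 0.327, 0.173 and -0.16. Only replicates 1 and 2 correlated best with their own number. With the replicate number as a block 7 splicing rows rose and 33 fell, all genes had 4885 rises and 4894 falls, and SRSF5 was called higher. Among all named genes, the pseudocount of 0.1 lost the SNRPB2 call, and median-of-ratios scaling, voom, the intensity trend and the minimum level changed no call. Depth limits mainly the low rows such as HNRNPA1P10.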
